A study of Homo sapiens with 6 samples.

Results

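Genes that take up, store, export and sense iron were followed in hepatocellular carcinoma cells that overexpressed TKT, the transketolase of the pentose phosphate pathway. The genes were taken by symbol from the deposited gene table, and all 10, namely TF, TFRC, TFR2, FTH1, FTL, SLC40A1, SLC11A2, HAMP, HFE and IREB2, were found among its 22077 genes. Total RNA was sequenced from 3 cultures labelled as the over-expression group and 3 labelled as the control group, all of the human liver cancer line given in the labels as Hu7. The paper itself writes Huh7 in its Results and HCCLM3 in its Methods, so the line is given here as labelled. Per the Methods, TKT was introduced by transfection of an expression plasmid followed by selection, and what the control cells received is not given in the sources used here. TKT itself had between 9392 and 9549 CPM (counts per 1000000, on TMM-scaled library sizes) in the TKT-overexpressing cultures and between 469 and 515 CPM in the control cultures, a 19.1-fold difference without overlap.

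Hepatocytes secrete transferrin (TF), which carries iron in blood, and take up loaded transferrin through the transferrin receptor (TFRC). Iron leaves the endosome through the transporter SLC11A2, is stored in ferritin made of heavy (FTH1) and light (FTL) chains, and leaves the cell through ferroportin (SLC40A1). Hepcidin (HAMP), a peptide hormone made by hepatocytes, binds ferroportin and causes its degradation, and HFE and TFR2 take part in adjusting HAMP transcription to the iron in blood. Iron regulatory proteins, one of them encoded by IREB2, bind hairpins called iron-responsive elements (IREs) when cellular iron is low. A hairpin in the 5′ UTR blocks translation, as in ferritin mRNA, and hairpins in the 3′ UTR protect the TFRC mRNA from decay.

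In GENCODE 29 (GRCh38) the uptake genes TF (chr3:133745956-133796640, plus strand) and TFRC (chr3:196027183-196082189, minus strand) lie on one chromosome and SLC11A2 on another (chr12:50979401-51028566, minus strand). FTH1 is at chr11:61959718-61967660 on the minus strand, FTL at chr19:48965301-48966878 on the plus strand and SLC40A1 at chr2:189560579-189583758 on the minus strand. HAMP is at chr19:35280716-35285143 and HFE at chr6:26087281-26098343, both on the plus strand, TFR2 at chr7:100620416-100642779 on the minus strand and IREB2 at chr15:78437431-78501456 on the plus strand.

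The IREs of 4 of the genes are shown because they are the sequences through which cellular iron is known to act on these mRNAs. UTRs of GENCODE 29 coding transcripts (GRCh38) were searched on the transcript strand for a C, 5 bases, the loop CAGTGN and 5 bases that pair fully with the first 5, G-T pairs allowed. Capitals mark the unpaired C and the loop.
FTH1 (5′ UTR, chr11:61967574-61967602, minus strand): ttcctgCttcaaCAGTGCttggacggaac
FTL (5′ UTR, chr19:48965335-48965363, plus strand): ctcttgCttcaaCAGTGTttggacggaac
SLC40A1 (5′ UTR, chr2:189580661-189580689, minus strand): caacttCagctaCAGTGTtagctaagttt
TFRC (3′ UTR, chr3:196050979-196051007, minus strand): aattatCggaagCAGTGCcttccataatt
TFRC (3′ UTR, chr3:196050575-196050603, minus strand): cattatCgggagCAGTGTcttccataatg
TFRC (3′ UTR, chr3:196050510-196050538, minus strand): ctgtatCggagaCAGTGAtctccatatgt
TFRC (3′ UTR, chr3:196050463-196050491, minus strand): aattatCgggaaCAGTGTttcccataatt
TFRC carried 4 matches in its 3′ UTR, and the 3 genes FTH1, FTL and SLC40A1 carried 1 each in the 5′ UTR. TF also held 1 match in the 3′ UTR of its annotated coding transcript (chr3:133792673-133792701, plus strand). With 1 transcript per gene, the pattern was present in 0.115% of 18228 searched 5′ UTRs and in 0.542% of 18823 searched 3′ UTRs. No other of the 10 genes held these letters, which says nothing of hairpins of another form.

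A stretch of the HAMP promoter is shown because the BMP and STAT3 genes described further on are known to act on HAMP through such elements. It spans bases -110 to -31 from the RefSeq gene start (GRCh38.p14, chr19:35282418-35282497, plus strand).
HAMP promoter: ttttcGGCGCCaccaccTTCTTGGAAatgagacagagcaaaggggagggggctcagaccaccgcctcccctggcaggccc
The capitals mark GGCGCC, the letters of the element that answers to BMP signals, and TTCNNNGAA, the letters of a STAT site. The whole HAMP window of 300 bases in the RefSeq table held 1 match of each. Both search patterns read the same on the other strand, with N as any base. Of 27305 RefSeq promoter windows of 300 bases, 19% held GGCGCC and 7.88% held TTCNNNGAA.

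Library totals lay between 30148788 and 37096156 counts. The labels give numbered biosamples and do not state whether these were separate cultures, as they are called here, so p-values measure the spread between these samples, which may be technical. Of 10 hepatocyte markers, 9 passed the expression filter, ALB and AFP among them, while APOB had at most 6 counts. In edgeR FGB (log2 fold change 0.50, adjusted p = 8.85e-10) and FOXA2 (0.35, adjusted p = 8.6e-05) were higher on TKT overexpression and HNF4A was lower (-0.15, adjusted p = 0.0072). The summed level of the hepatocyte list was between 18923 and 19248 CPM on TKT overexpression and between 18258 and 18637 CPM in control cells. The leukocyte list, carried almost wholly by LYZ, summed to between 123 and 129 CPM and between 154 and 163 CPM, with PTPRC not analysed here and CD3E near 0. The part of these markers in the results was not tested. Erythroid markers were at or near 0, and the fibroblast and endothelial list summed to between 15.6 and 20.8 CPM over all libraries.

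Ferritin light chain had by far the highest level of the 10 mRNAs and hepcidin the lowest, at or near 0 counts. Compared per length as FPKM (fragments per kilobase and 1000000 reads, from the authors' table), the median over the 6 libraries was 8363 for FTL, 713 for FTH1, 65.7 for TF, 40.7 for TFRC, 27.3 for SLC40A1, 14.1 for TFR2, 13.0 for IREB2, 5.32 for SLC11A2, 1.94 for HFE and 0 for HAMP. The ranges of TFR2 and IREB2 over the libraries overlapped, and no other neighbours in this order did. The order depends on the length used. The FPKM of TF implies a length of 26129 bases and that of TFRC 17436 bases, against coding lengths of 2094 and 2280 bases. With counts per kilobase of coding length the first 5 places were unchanged, and TFR2 moved from place 6 to place 8, behind IREB2 and SLC11A2. FTH1 is a further case, since 62.4% of its exonic bases in GENCODE 29 are also exonic in BEST1 on the opposite strand. Without strand, reads of the pair cannot be told apart, so its level may be misstated.

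**Figure D1:**
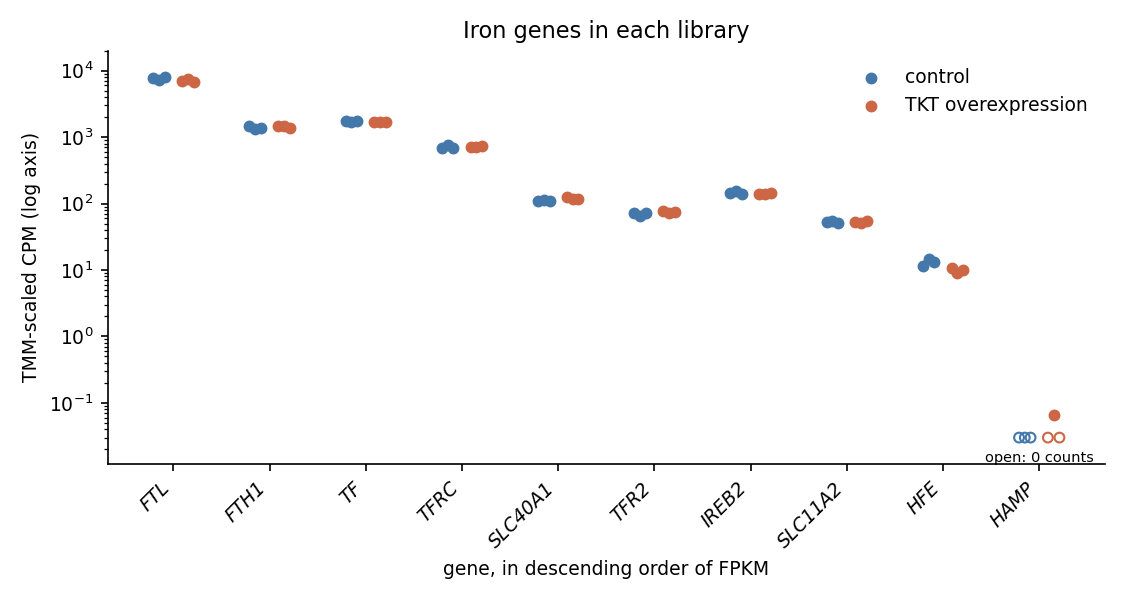
Level of each of the 10 iron genes in each library, in TMM-scaled CPM on a log axis, with genes in descending order of FPKM; each point is 1 library and open points mark 0 counts. Points of both conditions lie close together for most genes, and HAMP has 2 counts in a single TKT-overexpressing library.

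Of the 10 genes, 9 passed the expression filter, and only HFE was past an adjusted p of 0.05 in edgeR's quasi-likelihood test, where it fell by 24.8%. That is 1 of 9 genes, or 11.1%, against 10.6% of all 14162 tested genes in either direction, 5.69% higher and 4.94% lower. Fold changes are given as log2FC, the fitted log2 fold change of TKT overexpression against control, with SE for its standard error. None of the 9 passed the study's stricter threshold in edgeR, which adds an absolute log2FC over 1, against 0.727% of all genes. The study applied its threshold with DESeq2, so this share is not the study's own. At an unadjusted p under 0.05 in edgeR there were 3 of the 9 genes, HFE, FTL and SLC40A1, beside 3366 of all 14162. None of the 3 had an absolute log2FC over 1, as 207 of all genes did. DESeq2 called 2 genes at an adjusted p under 0.05, HFE and FTL, beside 1512 of the 14162. On log2(FPKM + 1) limma called 0, beside 827 of the 14162. The median log2FC of the 9 genes was -0.02, and that of all tested genes was 0.00. In bulk RNA such as this, fewer cells of a type and less RNA per cell cannot be told apart.

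**Figure D2:**
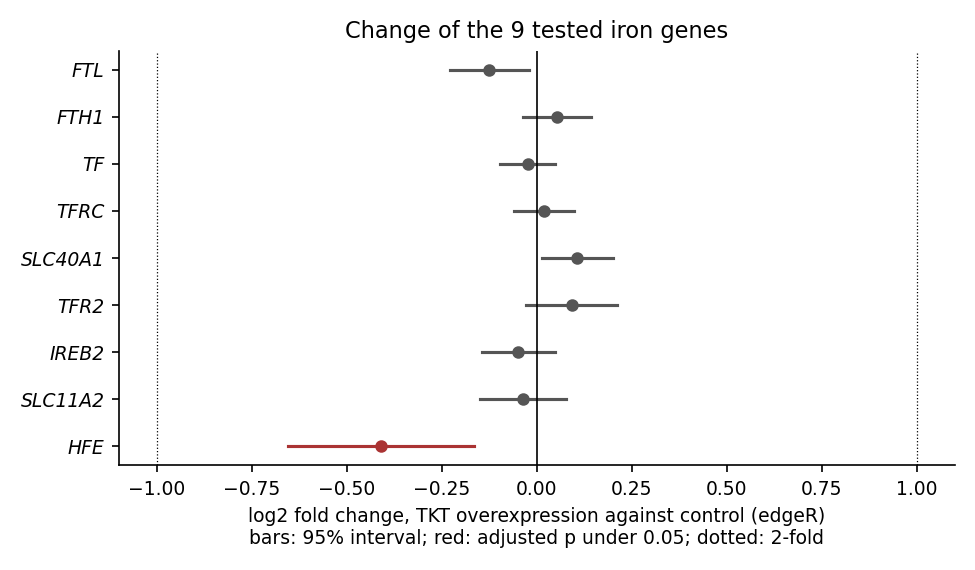
Fitted log2FC of TKT overexpression against control for the 9 tested iron genes, with 95% intervals from edgeR; red marks an adjusted p under 0.05 and dotted lines a 2-fold change. HFE, at -0.41, is the only red point, and every interval lies inside the dotted lines.

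Among the genes of uptake, TF had 1689, 1721 and 1703 CPM in the TKT-overexpressing cultures and 1751, 1692 and 1759 CPM in the control cultures. The groups overlapped and the log2FC was -0.02 (SE 0.03, adjusted p = 0.735 in edgeR). TFRC, the receptor that brings transferrin into the cell, had 723, 704 and 736 CPM on TKT overexpression and 690, 752 and 692 CPM in control cells. The highest value belonged to a control culture, and the log2FC was 0.02 (95% interval -0.06 to 0.10). A change of TFRC of more than 7.06% upward or 4.11% downward was therefore outside the interval. SLC11A2, the transporter that moves iron out of the endosome, had 52.5, 50.3 and 54.0 CPM on TKT overexpression and 53.5, 55.3 and 51.9 CPM in control cells, again with overlap (95% interval of the log2FC -0.15 to 0.08).

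Neither ferritin chain passed the test. FTH1, the chain with ferroxidase activity, had 1476, 1498 and 1373 CPM on TKT overexpression and 1488, 1347 and 1357 CPM in control cells, with overlap and a log2FC of 0.05 (SE 0.04, edgeR adjusted p = 0.511). FTL, the chain that favours mineral formation, had 6906, 7503 and 6667 CPM on TKT overexpression and 7756, 7142 and 8087 CPM in control cells. The groups overlapped through TKT-overexpressing culture 2 and control culture 2. The log2FC of FTL was -0.13 (SE 0.05, 95% interval -0.23 to -0.02) and its adjusted p in edgeR was 0.127. This call turned on the choice of test and libraries. The adjusted p was 0.0376 in DESeq2 and 0.00524 in edgeR with no expression filter, 0.0246 without TKT-overexpressing culture 2 and 0.0105 without control culture 2.

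The ratio of FTL counts to FTH1 counts within a library, which no scaling between libraries can move, was 4.68, 5.01 and 4.85 on TKT overexpression and 5.21, 5.30 and 5.96 in control cells. Every TKT-overexpressing library lay below every control library. The ratio was computed after the values of both genes were seen and is given without a test. Ferritin has many processed pseudogenes that can share reads with the parent genes. The 14 FTH1 pseudogenes of the table together held between 0.655% and 0.923% of the counts of FTH1, and the 6 FTL pseudogenes between 0.0396% and 0.0547% of those of FTL. Of these, 6 passed the filter and none was past an adjusted p of 0.05 in edgeR, the smallest being 0.0752 for FTH1P23, with a log2FC of 1.14. Adding the pseudogene counts to the parent genes left the log2FC values of FTH1 at 0.05 and of FTL at -0.13.

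SLC40A1, the iron exporter ferroportin, had 124, 118 and 119 CPM on TKT overexpression and 111, 113 and 111 CPM in control cells. Its groups did not overlap, as in 28.0% of all tested genes. The log2FC was 0.11 (SE 0.04, 95% interval 0.01 to 0.20), and with an adjusted p of 0.147 in edgeR it did not pass the test. It stayed above 0.05 in all 17 alternative analyses, between 0.111 and 0.431. HFE and SLC40A1 were the only 2 of the 9 genes without overlap. Per gene, an exact two-sided permutation test of 3 cultures against 3 cannot go below p = 0.1, which both reached.

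HFE encodes an MHC class I-like membrane protein that binds TFRC and is altered in hereditary haemochromatosis. It had 10.7, 8.95 and 10.1 CPM on TKT overexpression and 11.5, 14.6 and 13.35 CPM in control cells. The counts behind these values were 395, 276 and 332 against 362, 445 and 448. Every TKT-overexpressing culture was below every control culture, by a small gap between TKT-overexpressing culture 1 and control culture 1. The mean fell from 13.2 ± 1.57 to 9.90 ± 0.873 CPM (SD, 3 cultures each), with a log2FC of -0.41 (SE 0.12, 95% interval -0.66 to -0.17, adjusted p = 0.0274 in edgeR). The call was lost with several single cultures left out. In edgeR the adjusted p was 0.103 without TKT-overexpressing culture 2, 0.0634 without TKT-overexpressing culture 3, 0.122 without control culture 2 and 0.0752 without control culture 3, while the log2FC stayed between -0.50 and -0.33. In limma the adjusted p was 0.0951 on log2(FPKM + 1) and 0.0926 on log2(FPKM + 0.1).

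**Figure D3:**
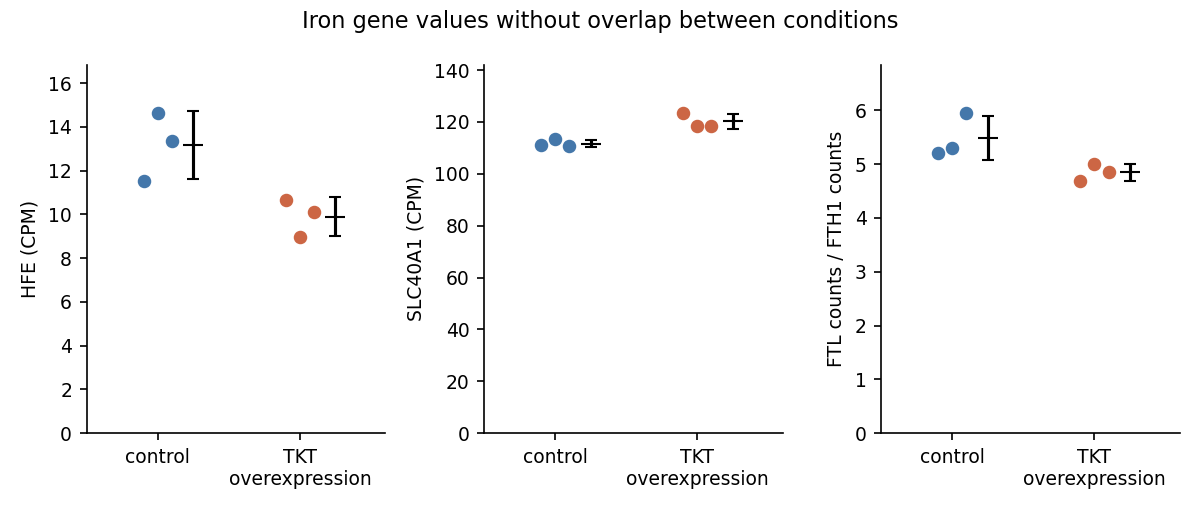
CPM of HFE, CPM of SLC40A1 and the ratio of FTL to FTH1 counts in each library, on linear axes from 0; points are libraries and black bars the mean and SD of 3. These panels were picked because the conditions do not overlap in them. Of all tested genes, 28.0% had no overlap in CPM. The mean of HFE falls from 13.2 to 9.90 CPM.

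TFR2, the receptor that signals the iron load of transferrin in hepatocytes, had 77.6, 71.0 and 73.8 CPM on TKT overexpression and 71.2, 64.3 and 73.2 CPM in control cells. The groups overlapped and the log2FC was 0.09 (SE 0.06, edgeR adjusted p = 0.370). IREB2, the iron regulatory protein that is degraded when iron is plentiful, had 140.1, 137 and 144 CPM on TKT overexpression and 143, 154 and 139 CPM in control cells. These groups also overlapped, with a log2FC of -0.05 (95% interval -0.15 to 0.05).

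HAMP had 0, 2 and 0 counts in the TKT-overexpressing cultures and 0 counts in each control culture, so it did not pass the filter. A count of 0 allows up to 3 counts per library, which is between 0.0810 and 0.0987 CPM at these depths and covers counting error only. A difference in HAMP was not detectable at this depth, and no fold is given. The hepatocyte gene APOB (0 to 6 counts) and the iron-sulphur gene FDX2 (2 to 6 counts) were also near 0 in every library. The annotation and counting settings are not given in the sources used here, so a count near 0 in this table does not by itself show that the mRNA was absent. Whether counting lowered HAMP was not tested.

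Other genes of iron and haem handling were taken from 9 lists of 107 genes in all. Of these, 102 were in the table and 96 were tested, and edgeR called 11 of them higher and 8 lower. The share was 19.8%, beside 10.6% of all tested genes, and the median log2FC was 0.00, as over all genes. The lists were chosen with earlier results of these data known, so the share is a description only. Whether it differs from that of all genes was not tested. No gene of these lists was past the stricter threshold in edgeR. At an unadjusted p under 0.05 INHBB alone had a log2FC over 1. DESeq2 called 18 of the genes, limma 8 on log2(FPKM + 1) and 10 on log2(FPKM + 0.1), and edgeR 12 without TKT-overexpressing culture 1 and 12 without control culture 3.

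**Figure D4:**
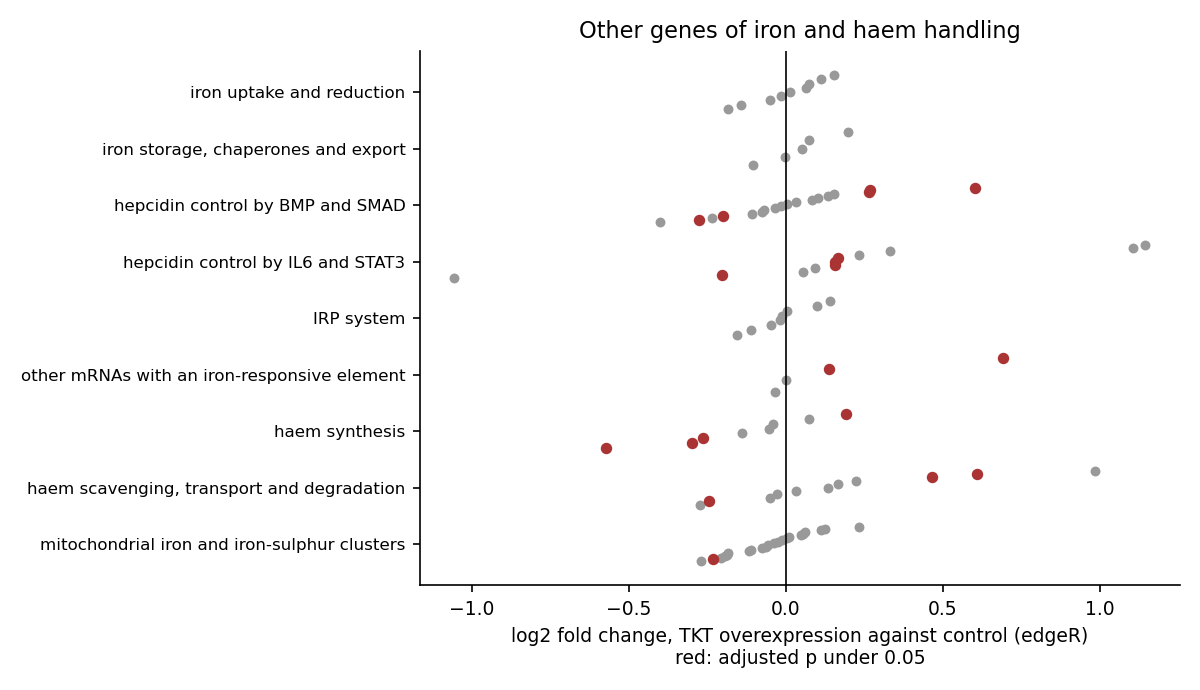
Fitted log2FC of the 96 tested genes of the 9 lists, TKT overexpression against control, 1 point per gene and 1 row per list; red marks an adjusted p under 0.05 in edgeR. The 3 lists of uptake and reduction, of storage, chaperones and export and of the IRP system hold no red point. They have only 9, 5 and 8 points.

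Of the 9 lists, 3 held no called gene, namely uptake and reduction, storage, chaperones and export, and the IRP system. They held 9, 5 and 8 tested genes, and lists this small can hold no call at the share of 10.6% over all genes. Among 9 tested genes of uptake and reduction, none was called by edgeR, DESeq2 or limma and none had an unadjusted p under 0.05. They include SLC39A14, a transporter of iron that is not bound to transferrin, with a log2FC of -0.05 (SE 0.03), and STEAP3, the endosomal ferrireductase, with -0.14 (SE 0.09). Of 5 tested genes of storage, chaperones and export none was called by any of the tools, and PCBP2, a cytosolic iron chaperone, had an unadjusted p of 0.0252. NCOA4, the receptor that carries ferritin to the lysosome, had a log2FC of 0.05 (SE 0.04), and ceruloplasmin (CP), the ferroxidase that works with ferroportin, had 0.08 (SE 0.06). Among 8 tested genes of the IRP system none was called by any of the tools, and ACO1 and CIAO1 had unadjusted p-values under 0.05. ACO1 encodes the other iron regulatory protein and FBXL5 the subunit of the ligase that degrades IREB2. Their log2FC values were -0.15 (SE 0.06, edgeR adjusted p = 0.0995) and -0.01 (SE 0.06).

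The genes through which BMP signals control hepcidin held calls in both directions. Of 18 tested, BMP2, BMP4 and ACVR1 were higher and SMAD6 and ID1 lower in edgeR. BMP2, a ligand that drives hepcidin in liver, had 60.6, 60.7 and 57.1 CPM on TKT overexpression and 39.0, 39.6 and 38.9 CPM in control cells. The groups were far apart, with a 1.52-fold rise (log2FC 0.60, SE 0.05, adjusted p = 9.59e-08). BMP4, a related ligand, had a log2FC of 0.27 (SE 0.07, adjusted p = 0.0186), and ACVR1, a type I BMP receptor, one of 0.27 (SE 0.08, adjusted p = 0.0330). ID1, a transcript commonly used as a readout of BMP signals, fell from 973 ± 36.4 to 848 ± 24.2 CPM (SD, 3 cultures each), with a log2FC of -0.20 (SE 0.04, adjusted p = 0.00115). SMAD6, an inhibitor of the pathway, had a log2FC of -0.28 (SE 0.06, adjusted p = 0.00354). BMP6, the other main ligand for hepcidin, was near the detection limit at under 1 CPM in every library. The coreceptor HJV had 4.29, 4.41 and 4.53 CPM on TKT overexpression and 5.16, 5.33 and 5.07 CPM in control cells. HJV was not called (log2FC -0.23, SE 0.16, edgeR adjusted p = 0.415). The call of ACVR1 was lost without each culture but control culture 3 (adjusted p between 0.0512 and 0.124). The call of BMP4 was lost without TKT-overexpressing cultures 1 or 2 or control culture 2 (0.0608 to 0.0855). In limma on log2(FPKM + 1), ACVR1, BMP4 and SMAD6 had adjusted p-values of 0.115, 0.0511 and 0.0566.

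Of 11 tested genes of the inflammatory arm of hepcidin control, JAK1, STAT3 and CREB3L3 were higher and TYK2 lower. STAT3, the factor that IL6 activates at the HAMP promoter, had a log2FC of 0.16 (SE 0.05, adjusted p = 0.0447), the kinase JAK1 0.16 (SE 0.05, adjusted p = 0.0439), and CREB3L3, a liver transcription factor of the endoplasmic reticulum, 0.17 (SE 0.05, adjusted p = 0.0312). The kinase TYK2 had -0.20 (SE 0.05, adjusted p = 0.00739). Without single cultures the first 3 lost their calls in 4 of 6 fits each. For STAT3 these were without TKT-overexpressing cultures 1 or 2 or control cultures 1 or 3 (adjusted p 0.0981 to 0.171). For JAK1 they were without TKT-overexpressing cultures 1 or 3 or control cultures 1 or 3 (0.0597 to 0.240), and for CREB3L3 without TKT-overexpressing cultures 1 or 3 or control cultures 2 or 3 (0.0701 to 0.149). In limma on log2(FPKM + 1) none of the 4 calls held, with adjusted p-values of 0.0534 for TYK2, 0.160 for JAK1, 0.102 for STAT3 and 0.0510 for CREB3L3. IL6 itself had at most 0.675 CPM in any library.

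Haem synthesis is a major use of iron in liver. Of its 8 enzymes, ALAS1 was higher and UROD, CPOX and PPOX were lower. ALAS1, the rate-limiting first enzyme, had 166, 182 and 163 CPM on TKT overexpression and 154, 143 and 151 CPM in control cells (log2FC 0.19, SE 0.05, edgeR adjusted p = 0.0108). UROD, CPOX and PPOX, consecutive enzymes late in the pathway, had log2FC values of -0.26 (SE 0.05), -0.30 (SE 0.06) and -0.57 (SE 0.14), with adjusted p-values of 0.00125, 0.00104 and 0.0100. FECH, which inserts the iron, had a log2FC of 0.08 (SE 0.06). Without TKT-overexpressing culture 2, ALAS1 had an adjusted p of 0.0707. PPOX, at 5.24 to 9.42 CPM, lost its call without TKT-overexpressing culture 1 (0.0617) or control culture 3 (0.0562).

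Of 11 tested genes of haem scavenging, transport and degradation, HPX and HMOX1 were higher and LRP1 lower. Hemopexin (HPX), the plasma protein that binds free haem, had 73.9, 83.3 and 75.4 CPM on TKT overexpression and 50.7, 46.7 and 54.9 CPM in control cells, a 1.53-fold rise (log2FC 0.61, SE 0.06, edgeR adjusted p = 9.63e-07). HMOX1, the inducible haem oxygenase that frees iron from haem, had 161, 163 and 156 CPM and 118, 114 and 116 CPM, a 1.38-fold rise (log2FC 0.47, SE 0.04, adjusted p = 1.16e-07). LRP1, the receptor for hemopexin-bound haem, had a log2FC of -0.24 (SE 0.05, adjusted p = 0.00244). In these 3 genes the groups did not overlap, as in 28.0% of all tested genes. They were named for their calls in the same libraries, so this adds no support. Every fit that left out 1 culture kept the 3 calls. The adjusted p of LRP1 was 0.0800 in limma on log2(FPKM + 1). HMOX2, the constitutive haem oxygenase, had between 0.417 and 6.81 CPM and an SE of 0.98 for its log2FC.

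Among 4 tested mRNAs of other genes known for an IRE, EPAS1 and CDC14A were higher. EPAS1, the hypoxia-inducible factor with an IRE in its 5′ UTR, had a log2FC of 0.14 (SE 0.04, edgeR adjusted p = 0.0216). CDC14A, a phosphatase at 2.80 to 6.52 CPM, had 0.69 (SE 0.20, adjusted p = 0.0271). EPAS1 lost its call without TKT-overexpressing cultures 1 or 2 or control culture 3 (0.0667 to 0.104), and CDC14A without TKT-overexpressing cultures 2 or 3 or control cultures 1 or 3 (0.0957 to 0.141). In limma on log2(FPKM + 1) both missed the threshold, EPAS1 with an adjusted p of 0.0566 and CDC14A with one of 0.104, where the log2 difference of CDC14A was 0.29. Of 22 tested genes of mitochondrial iron and iron-sulphur clusters, NFS1, the cysteine desulfurase that supplies the sulphur, was the one called, with a log2FC of -0.23 (SE 0.07, adjusted p = 0.0429). It was lost in DESeq2 (0.0556) and without TKT-overexpressing cultures 2 or 3 or control cultures 1 or 3 (0.0593 to 0.201).

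**Figure D5:**
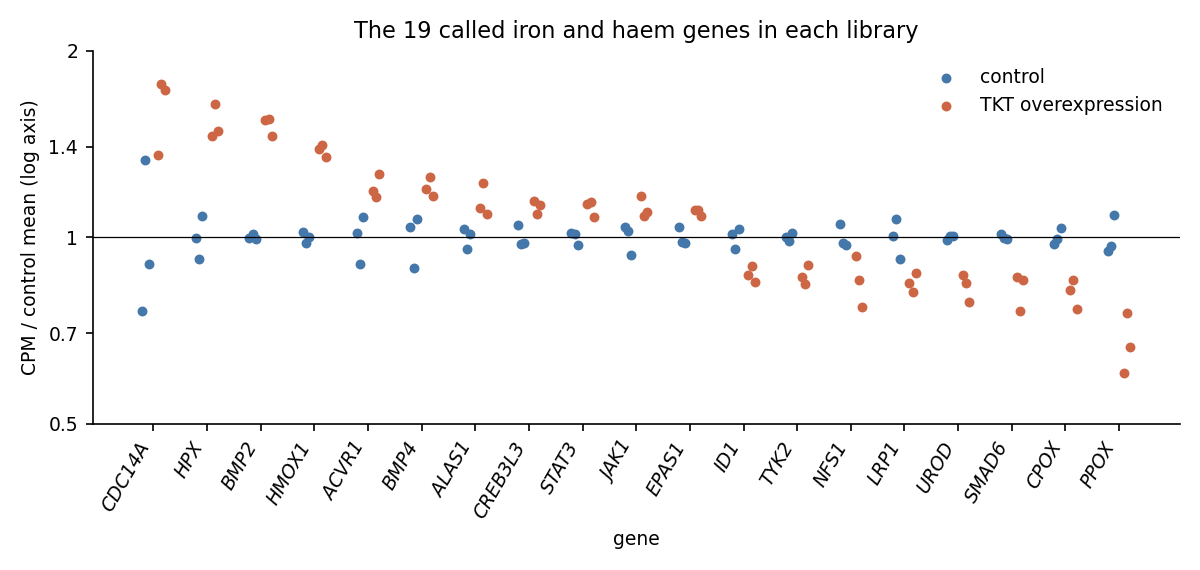
Level of the 19 called iron and haem genes in each library divided by the mean of the control libraries, on a log axis; each point is 1 library. For BMP2, HPX and HMOX1 the TKT-overexpressing libraries stand well above the control libraries, while for most of the other genes the gap between conditions is small.

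TMED10 and MFSD8 were among the genes with the pattern most like that of HFE over the 6 libraries. Of 11278 genes whose average log2 CPM was 1 or more, they were among the closest, with Pearson correlations to HFE of 0.995 and 0.992 on log2 CPM. The points share their libraries and the difference between conditions. The log2FC values of these genes were -0.07 and -0.14, with edgeR adjusted p-values of 0.242 and 0.368, so neither of them passed the test.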

How the data were processed

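RNA-seq of 3 TKT-overexpressing and 3 control cultures was analysed. Per the labels and the paper's Methods, the authors trimmed reads with fastp 0.22.0, aligned them to hg38 with HISAT2 2.1.0 and counted them with featureCounts. The deposited counts per gene are not normalized, and the authors' FPKM values were deposited in a second table. The annotation and the strand and multi-mapping settings are not given in the sources used here.

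Counts were tested in R 4.3.3 with edgeR 4.0.16 (filterByExpr with a minimum count of 10, TMM, robust quasi-likelihood test, no pairing, Benjamini-Hochberg over 14162 genes). Genes under an adjusted p of 0.05 count as called. Standard errors come from the F statistic. The alternatives used DESeq2 1.42.0, limma 3.58.1, other scalings and filters, and each culture left out. The script was tested on simulated counts. The 10 genes and the lists were chosen with earlier results of these data known. The genes named are the 10, called genes of the lists (at most 5 each), TKT, and the 3 genes most like the member with the smallest p, of which 1 is not reported here. Others were named after their values were seen, chiefly for their role. Positions are from GENCODE 29 (GRCh38).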

Additional observations from a re-analysis of the deposited data

How the results depend on the processing

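Of 17 alternatives, none changed the direction or the call of TF, TFR2, FTH1, SLC40A1, SLC11A2 or IREB2. TFRC, at a log2 fold change of 0.02, lay between -0.0034 and 0.0630 with single cultures left out, and was -0.0034 and -0.0019 without control culture 1 and control culture 3. FTL was past the threshold in DESeq2 (log2 fold change -0.13) and with no filter (-0.12), and lay between -0.1751 and -0.0857 with single cultures left out. HFE missed it in limma on log2(FPKM + 1) (-0.27) and log2(FPKM + 0.1) (-0.39), and lay between -0.50 and -0.33 with single cultures left out. The cause was not tested.

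Of the 10 genes, DESeq2 called 2, edgeR with no filter 2, limma 0 with either pseudocount, and edgeR 0 to 1 with single cultures left out (0 without TKT-overexpressing culture 3 or control culture 3). The 1 was HFE without TKT-overexpressing culture 1 or control culture 1, and FTL without TKT-overexpressing culture 2 or control culture 2. Of the other iron genes, limma called 8 on log2(FPKM + 1) and 10 on log2(FPKM + 0.1), and edgeR 12 to 18 with single cultures left out. Over all genes limma called 827 and 826, and edgeR 791 to 1586. BMP2, ID1, UROD, CPOX, HPX and HMOX1 kept their calls in all 17 alternatives.

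No sign of pairing by replicate number was seen, which does not show that the samples were unpaired. Deviations from the group means of same-numbered libraries correlated at -0.01, -0.06 and 0.02. With the number as a replicate block, HFE stood at a log2 value of -0.41 (edgeR adjusted p = 0.0991), 0 of the 10 genes, 11 of the other iron genes and 697 of all genes were called. Among the other iron genes, the 8 calls lost were those of ACVR1, BMP4, CREB3L3, STAT3, JAK1, EPAS1, ALAS1 and NFS1.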
